A study of Arabidopsis thaliana with 4 samples.

Results

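The subject is a block of 1069 tiles on 12 consecutive array plates, TA18 to TA29, out of 21685 tiles with a value in the whole series. These plates were selected on the high log ratios of these same replicates, because the high ratios thin out and nearly stop within them. The share of high tiles, and every level or count that rests on the same ratios, is therefore given as a description and supports nothing. The study measured trimethylation of histone H3 at lysine 36 (H3K36me3) by chromatin immunoprecipitation (ChIP) on tiling arrays. ChIP DNA was hybridised together with input DNA, which is chromatin DNA that did not go through the antibody. All samples were untreated Arabidopsis thaliana seedlings of the accession Col-0, labelled as 10 days old and grown in liquid medium, and a commercial antibody to the mark was used. No mutant, treatment or second tissue was compared, and whole seedlings mix many cell types.

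H3K36me3 is set on nucleosomes by histone methyltransferases that accompany RNA polymerase II, in Arabidopsis chiefly by SDG8. It is known from the bodies of transcribed genes, where it is most abundant towards the start of the transcribed region, and it is sparse over silent, repeat-rich chromatin. A profile along a chromosome is therefore usually a mosaic of marked stretches, each the size of a gene or a few neighbouring genes. No table used here pairs the tiles with genes, positions or base sequences, so no gene is named and no sequence is shown. A tile is known by its identifier: the plate, the row A to H and the column 1 to 12.

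The design has 2 replicates, each a ChIP extract and its input, and a replicate went onto 2 arrays with exchanged dyes. Both columns of a pair hold identical values, so each pair counts once and n = 2. The labels name no separate cultures for them, so their spread may be technical, and so may the p-values behind the calls. Neither the base of the logarithm nor the direction of the ratio is given in the sources used here. High and low below refer to the ratio as deposited, no fold is given, and if the ratio runs input over ChIP all directions are exchanged for the mark. Each replicate was centred on its median over all tiles, and values are in units of the log ratio relative to that median. As deposited, the ratios of the 1069 tiles ran between -2.71 and 2.26 in replicate 1 and between -2.53 and 2.17 in replicate 2.

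Tiles were called high or low with a 2-component normal mixture of the replicate means of all tiles, with a lower component at -0.32 and an upper one at 1.58. High tiles have a posterior probability above 0.99 for the upper component, low tiles are more probably of the lower one, and the rest lie between. On TA18 to TA29, 142 tiles (13.3%) were high, 887 (83.0%) were low and 40 lay between. Of all tiles of the array, 28.4% were high and 63.8% low. With the mixture fitted to each replicate alone, 137 members were high in replicate 1 and 126 in replicate 2, against 27.4% and 26.0% of all tiles. Of these, 123 were high in both. At the threshold, TA19H06 lay just inside at 1.12 in replicate 1 and 0.91 in replicate 2, with TA26E08 next at 1.03 and 1.04. TA19G11 lay just outside at 1.02 and 0.89, with TA18E07 next at 0.98 and 0.90.

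The test of each tile against the array median (limma, n = 2, Benjamini-Hochberg adjusted over all 21685 tiles) called 199 members above it (18.6%) and 653 below it (61.1%). The corresponding shares of all tiles were 38.9% above and 32.3% below. The remaining 217 members (20.3%) did not pass. All 852 called members had the same sign in both replicates, and the smallest called mean was 0.31 in size. A call needs a mean that is large against the replicate spread, so the shared sign follows largely from the call. These calls use the ratios that chose the plates, so nothing is read from their difference from the whole table.

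**Figure D1:**
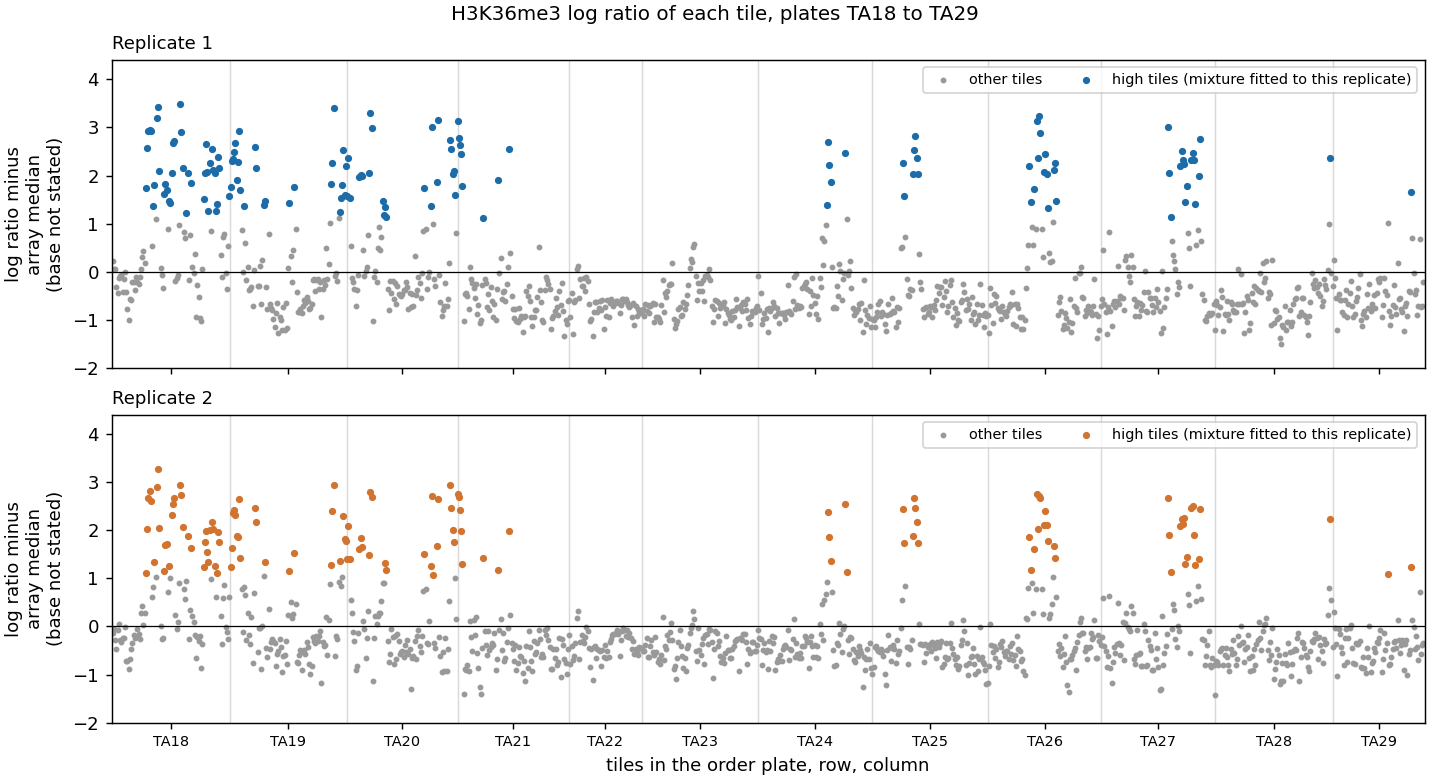
Log ratio of each of the 1069 tiles minus the array median (y axis) in the order plate, row, column (x axis), for replicate 1 above and replicate 2 below; coloured points are tiles called high with the mixture fitted to that replicate. High tiles are frequent up to the start of TA21, absent on TA22 and TA23 and gathered in separate groups from TA24 to TA27 in both replicates.

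The label of an early low stretch holds for most of these plates and not for the first 3. TA18, TA19 and TA20 together held 89 high tiles among 282 (31.6%), near the median plate of the array (29.2% over 231 plates). The share of high tiles was 39.6% on TA18, 27.4% on TA19 and 27.5% on TA20. From TA21 to TA29 there were 53 high tiles among 787 (6.73%). The share was 7.78% on TA21, 0 on TA22 and TA23, 6.45% on TA24, 7.37% on TA25, 16.3% on TA26, 16.1% on TA27, 1.04% on TA28 and 2.70% on TA29. The 0 of 154 tiles on TA22 and TA23 allows a share of up to 1.95%, counting error only and taking tiles as independent, which neighbours are not. These plates were also singled out because their count was 0, so the limit describes the count and supports nothing. In replicate 1 alone the 3 first plates had 39.6%, 26.3% and 26.4% high tiles. In replicate 2 alone they had 34.4%, 22.1% and 24.2%, and TA22 and TA23 had none in either.

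The decline was thus not a single drop followed by a single rise. High tiles stopped at TA21, came back in groups on TA24 to TA27 and nearly stopped again on TA28 and TA29. On the plates after these, the share was 15.6% on TA30, 24.5% on TA31 and 40.6% on TA32. On TA17, the plate before, it was 43.6%. The plates from TA21 to TA29 therefore hold 2 nearly empty intervals, one around TA22 and TA23 and the other on TA28 and TA29, with sparse groups of high tiles between them.

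**Figure D2:**
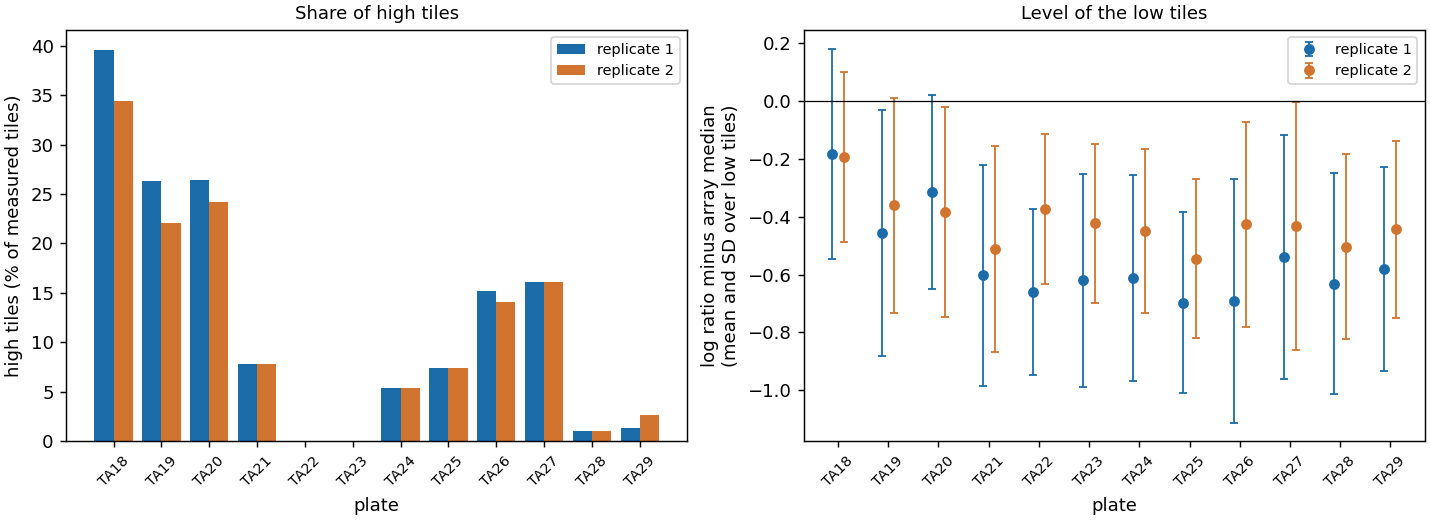
Left, the share of high tiles on each plate (y axis, percent of measured tiles), with the mixture fitted to replicate 1 or replicate 2 alone. Right, the log ratio of the low tiles of each plate minus the array median (points are means and bars SDs over tiles); in replicate 1 every plate from TA21 on lies below TA18, TA19 and TA20, and in replicate 2 every one but TA22 does.

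The last plates before the stop were mosaics of high and low tiles. TA18 opened with 27 tiles without a high one, TA18A01 to TA18C03, which averaged -0.19 in replicate 1 and -0.22 in replicate 2. High tiles began at TA18C04, with 1.75 in replicate 1 and 1.10 in replicate 2, while TA18C03 before it had 0.19 and 0.28. The window of 12 tiles with the highest mean began there and ran to TA18D03, averaging 2.22 in replicate 1 and 1.94 in replicate 2. The highest tile of all 1069 lay within it: TA18D02 had 3.42 in replicate 1 and 3.27 in replicate 2. The next highest was TA18E08, with 3.48 and 2.95, and then TA19H02, with 3.41 and 2.94. All 3 lay on the first plates, and each had a higher value in replicate 1.

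The longest runs of consecutive high tiles also lay there. A run of 10 crossed from TA18H12 to TA19A09 and averaged 2.20 ± 0.44 in replicate 1 and 1.84 ± 0.63 in replicate 2 (SD over tiles). Another run of 10 crossed from TA19H06 to TA20A04 and averaged 1.75 ± 0.47 and 1.50 ± 0.50 (SD over tiles). With the mixture fitted to each replicate alone, 10 tiles of the first run were high in replicate 1 and 9 in replicate 2. Of the second run, 9 were high in replicate 1 and 7 in replicate 2, so it was not unbroken in either. It also passes over a well without a measured tile, between TA20A01 and TA20A03. Both runs continued over the end of a plate. Low intervals of some length occurred on these plates too, such as the 30 tiles from TA20D01 to TA20F08, at -0.35 in replicate 1 and -0.42 in replicate 2. A second such interval held the 29 tiles from TA19E07 to TA19G11, at -0.34 and -0.39.

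The high ratios stopped abruptly in the first row of TA21. The last group of high tiles before the stop ran from TA20H06 to TA21A04, with 10 high tiles among 11 and means of 2.24 in replicate 1 and 1.95 in replicate 2. The last 4 of them were lower tile by tile. TA21A01 had 2.77 in replicate 1 and 2.69 in replicate 2, TA21A02 had 2.64 and 2.41, TA21A03 had 2.44 and 1.97, and TA21A04 had 1.79 and 1.29. The next tile, TA21A05, had -1.01 in replicate 1 and -1.40 in replicate 2. A high tile and a strongly low one were thus direct neighbours here, in both replicates.

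The ordered tiles were also divided into 3 segments of constant level by least squares. This uses the same ratios in which the stop was read, so it is a description and adds no support. One break fell between TA21A04 and TA21A05 on the replicate mean and in each replicate alone. The 783 tiles after it averaged -0.43 ± 0.78 in replicate 1 and -0.29 ± 0.67 in replicate 2 (SD over tiles). The other break was less settled. It fell at TA20H05 on the mean and in replicate 2, and at TA19B01 in replicate 1. At TA20H05 it sets off only the 12 tiles before the stop. This is the shortest segment allowed, so its exact place there may come from that limit. The 3 segments left 80.6% of the variance of the replicate mean unaccounted for, since high and low tiles alternate within them. With 4 breaks, the additional ones set off the 24 tiles from TA26C10 to TA26E11 on the mean and in replicate 1, and in replicate 2 fell on TA18 and TA19.

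After the stop, TA21 held only 3 more high tiles, each alone. TA21B11 had 1.13 in replicate 1 and 1.41 in replicate 2, with neighbours TA21B10 at -0.28 and -0.44 and TA21B12 at -0.15 and -0.09. TA21C11 had 1.91 and 1.17, between TA21C10 at -0.36 and -0.68 and TA21C12 at -0.02 and -0.07. TA21D08 had 2.56 and 1.97, between TA21D07 at 0.09 and -0.03 and TA21D09 at 0.39 and 0.24. Each stood above both neighbours by more than 1 in both replicates.

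The longest stretch without a high tile began at TA21D09 and ended at TA24E11. It held 258 measured tiles, 24.1% of the members, over 303 wells. In replicate 1 the tiles averaged -0.63 ± 0.37 and in replicate 2 -0.43 ± 0.29 (SD over tiles). Of the 258, 255 were low and 3 lay between, and the highest single value was 0.98 in replicate 1 and 0.68 in replicate 2. The test called 210 below the array median, 6 above it and 42 neither. Of all tiles, 32.3% were called below and 38.9% above. The stretch was cut by the same ratios, so its counts are a description. The stretch had the same limits with the mixture fitted to replicate 1 alone, and it ended 1 tile later, at TA24E12, with the mixture fitted to replicate 2 alone.

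The stretch was not flat. In replicate 1 the highest row within it with 8 or more tiles and no high tile was TA23D, at -0.12 ± 0.46 (SD over 12 tiles). In replicate 2 TA23D had -0.28 ± 0.38 (SD over 12 tiles), and TA22D was higher at -0.26. TA23E followed in replicate 1 at -0.33. In replicate 2 TA23E had -0.39, below TA22E at -0.28 and TA22A at -0.35. On TA23D and TA23E replicate 1 was the higher, while on all other rows of TA22 and TA23 it was the lower. TA23D08, with 0.51 in replicate 1 and 0.32 in replicate 2, and TA23D09, with 0.57 and 0.16, were called above the array median. The rows on either side were lower, TA23C with -0.80 and -0.60 and TA23F with -0.75 and -0.45. This shoulder stayed below the level of a high tile in both replicates, and it was singled out after the values were seen. Over the 258 tiles the replicates correlated with r = 0.74, given as a description across neighbouring tiles that share their arrays and are not independent.

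A block of 32 wells without a measured tile, TA22F02 to TA22H09, lies inside this stretch. The tile before it, TA22F01, had -0.77 in replicate 1 and -0.59 in replicate 2, and the tile after it, TA22H10, had -0.83 and -0.43. Both were low, and the ratio across the block is not known. In all, 80 of the 1152 wells of these plates are not listed in the table used here and 3 more, all on TA29, have no value. Of the unlisted wells, 36 belong to TA22 and 19 to TA29. Consecutive tiles on the later rows of TA29 therefore often lie more than 1 well apart.

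High ratios returned at the end of row E of TA24, after several tiles of middling ratio. TA24E08 had 0.70 in replicate 1 and 0.47 in replicate 2, TA24E09 was low at 0.14 and -0.27, TA24E10 had 0.63 and 0.56, and TA24E11 had 0.98 and 0.68. The first high tile was TA24E12 with 1.39 and 0.92, and it was high with the mixture fitted to replicate 1 but not to replicate 2. TA24F01 reached 2.71 and 2.38, followed by TA24F02 with 2.21 and 1.86 and TA24F03 with 1.87 and 1.37. The return thus ran through tiles of middling ratio, while none lay between the last high tile before the stop and TA21A05. The high tiles TA21A01 to TA21A04 before that stop were nevertheless lower tile by tile, so the fall was also graded. A pair followed after 11 tiles, TA24G03 with 2.47 and 2.54 and TA24G04 with 1.09 and 1.12.

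**Figure D3:**
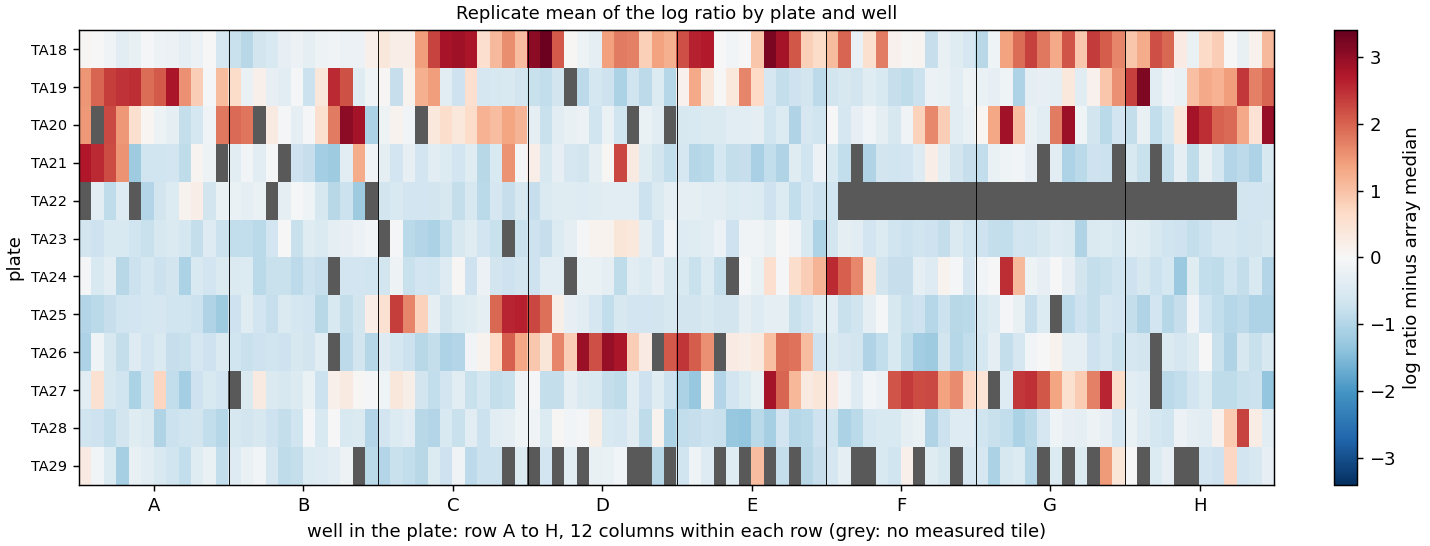
Replicate mean of the log ratio minus the array median (colour) for each well, with plates down the page and wells from row A to row H across it; grey wells have no measured tile. Red groups fill parts of TA18 to TA20 and the start of TA21, and recur on TA24 to TA27 in rows C to G.

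The groups of high tiles on TA25, TA26 and TA27 were larger. High tiles were joined into a group when at most 6 other tiles lay between them, a limit set after the values were seen. On TA25 the group ran from TA25C02 to TA25D02 with 7 high tiles among 13. On TA26 it ran from TA26C11 to TA26E11, 23 tiles of which 15 were high, with means of 1.57 in replicate 1 and 1.38 in replicate 2. On TA27 a group of 3 high tiles from TA27E08 to TA27E10 was followed by one from TA27F06 to TA27G11 with 12 high tiles among 17, at 1.66 and 1.49. The 3 largest groups together held 34 of the 49 high tiles after the stop.

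The TA25 group was made of 2 parts with 6 other tiles between them. TA25C02 had 2.26 in replicate 1 and 2.44 in replicate 2, and TA25C03 had 1.58 and 1.72. The second part held TA25C10 to TA25D02, highest at TA25C12 with 2.83 and 2.47. In the TA26 group the highest tiles were TA26D07, with 3.24 and 2.70, and TA26D05, with 3.13 and 2.74. No tile of the TA26 group was called below the array median, and its lowest replicate mean was 0.23. In the 2 groups of TA27, TA27E08 had the highest replicate mean, with 3.01 in replicate 1 and 2.68 in replicate 2.

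The high tiles after TA20 were fewer than those before, at a similar level. On TA21 to TA29 they averaged 2.10 ± 0.56 in replicate 1 and 1.88 ± 0.56 in replicate 2 (SD over 53 tiles). On TA18 to TA20 they averaged 2.08 ± 0.63 and 1.80 ± 0.65 (SD over 89 tiles), and in the rest of the series 2.03 ± 0.60 and 1.85 ± 0.57. The means differed by less than 0.1 between these groups of plates in each replicate, which is smaller than the spread over tiles; no test was made, since high tiles are cut by the same ratio. Runs of consecutive high tiles averaged 2.58 tiles on TA21 to TA29, over 19 runs of which 7 were single tiles. On TA18 to TA20 they averaged 3.58 tiles over 26 runs, of which 5 were single. A run was counted on the plate where it began, so the 5 tiles from TA20H12 to TA21A04 were counted with TA18 to TA20.

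Between the groups, long low intervals took up most of the plates. The 90 tiles from TA25D03 to TA26C10 averaged -0.70 in replicate 1 and -0.52 in replicate 2. The 90 tiles from TA26E12 to TA27E07 averaged -0.61 and -0.43, and the 105 tiles from TA27G12 to TA28H09 averaged -0.64 and -0.51. The 45 tiles from TA24G05 to TA25C01 averaged -0.73 and -0.54, the lowest of these means in each replicate. Between 77.8% and 86.7% of the tiles of these 4 intervals were called below the array median, against 32.3% of all tiles. The intervals were cut by these same ratios to hold no high tile, so nothing is read from these shares.

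The edges of these intervals were not all alike. At the start of the interval from TA26E12, the fall ran over several tiles. TA26E10 had 2.26 in replicate 1 and 1.43 in replicate 2. TA26E11, the last high tile of its group, had 1.47 and 0.62 and was not high with the mixture fitted to replicate 2. TA26E12 after it had -0.89 and -0.50. The end of the same interval was sharp: TA27E07 had -0.35 and -0.15 just before TA27E08 at 3.01 and 2.68. By contrast TA27G12, the first tile of the next interval, still had 0.64 and 0.58 after TA27G11 at 2.76 and 2.44.

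Edges were also read across replicates, with runs of 3 or more high tiles defined in one replicate and their levels taken from the other. With 32 run edges from replicate 1, the tile just outside averaged 0.08 ± 0.58 in replicate 2 and the first tile inside 1.69 ± 0.68 (SD over edges). The second tile inside averaged 2.02 ± 0.57, and the tile 3 outside -0.22 ± 0.46. With 30 run edges from replicate 2, the tile just outside averaged 0.25 ± 0.63 in replicate 1 and the first inside 2.10 ± 0.59. Most of the step lay between 2 consecutive tiles in either direction of the comparison. An edge was used only where 3 or more tiles that were not high lay outside the run. The replicates also correlated with r = 0.96 over the block. A step at the edge is thus largely set by this choice, and its size is a description only. The tile just outside was nevertheless higher on average than those 2 and 3 tiles away in both.

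The second nearly empty interval held 3 high tiles, each single. TA28H10 had 2.37 in replicate 1 and 2.23 in replicate 2, with TA28H09 before it at 0.99 and 0.80 and TA28H11 after it at -0.03 and 0.56. TA29E07 had 1.01 and 1.09, and was high with the mixture fitted to replicate 2 but not to replicate 1. TA29G11 had 1.67 and 1.24, with TA29G12 after it at 0.70 and 0.14. TA29E07 and TA29G11 have unlisted wells beside them, so their neighbours in the order are not all adjacent wells. Only TA28H10 of the 3 reached a level above 2 in both replicates.

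The lowest ratios of the block lay in the interval from TA27G12 to TA28H09. TA27H12 had -1.22 in replicate 1 and -1.43 in replicate 2, TA28E06 had -1.49 and -1.14, and TA28E05 had -1.38 and -1.19. The window of 12 tiles with the lowest mean ran from TA28D12 to TA28E11, with -1.06 in replicate 1 and -0.84 in replicate 2. All 12 tiles of row TA28E were called below the array median, as were all 12 on other rows, such as TA22C, TA23A and TA28A. In all, 20 tiles were below -1 in both replicates, of which 5 lay on TA28, and 19 lay on TA21 to TA29. Those plates hold 787 of the 1069 tiles and 716 of the 887 low tiles. The count of such tiles over the whole array is not given here.

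The level of the low tiles themselves was lower after the stop. On TA21 to TA29 the 716 low tiles averaged -0.63 ± 0.37 in replicate 1 and -0.46 ± 0.32 in replicate 2 (SD over tiles). On TA18 to TA20 the 171 low tiles averaged -0.33 ± 0.39 and -0.32 ± 0.35. The difference was -0.29 in replicate 1 and -0.14 in replicate 2, the same direction with unequal size. TA22 was an exception in replicate 2, where its low tiles averaged -0.37, against -0.38 on TA20. By replicate mean the difference between low tiles after and before the stop was -0.22. Without TA18, whose low tiles were the highest at -0.18 and -0.20, this difference was -0.16. Ranked from the lowest of all 231 plates by the mean of their low tiles, TA21 to TA29 held ranks between 7 (TA25) and 33 (TA27). TA19 held rank 46, TA20 rank 61 and TA18 rank 162. No test was made, because the plates were chosen with these ratios in view.

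Replicate 1 lay below replicate 2 on the low tiles and above it on the high ones. On TA21 to TA29 the difference, replicate 1 minus replicate 2, averaged -0.17 ± 0.25 over low tiles and 0.22 ± 0.28 over high tiles (SD over tiles). Replicate 1 was the lower at 532 of 716 low tiles (74.3%). Over the whole array the difference averaged -0.05 over low tiles and 0.17 over high tiles, so both signs are also those of the array. The matching count of low tiles over the whole array is not given here. On TA18 to TA20 the difference averaged -0.01 ± 0.27 over low tiles and 0.28 ± 0.24 over high tiles, and replicate 1 was the lower at 88 of 171 low tiles (51.5%). By plate, the mean difference of low tiles was farthest from 0 on TA22 at -0.29, followed by TA26 at -0.26 and TA23 at -0.20. It was 0.07 on TA20 and 0.01 on TA18.

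The replicates also differ in scale: over all tiles the SD was 1.15 in replicate 1 and 1.04 in replicate 2. After quantile normalization, which gives both the same distribution, the difference over low tiles was -0.08 on TA21 to TA29 and 0.04 on TA18 to TA20. Over high tiles it was 0.05 on TA21 to TA29 and 0.10 on TA18 to TA20. The part that the extracts or the arrays have in the remainder was not tested. No tile differed by more than 1 between replicates. The largest differences were at TA18H12, with 1.58 in replicate 1 and 0.61 in replicate 2, at TA26H11, with -1.20 and -0.31, and at TA26E11, with 1.47 and 0.62.

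By plate row the same pattern held. Of 56 rows with at least 8 tiles and no high tile, replicate 1 was lower in 51. Of 21 rows with 3 or more high tiles, it was higher in 21. The same row counts over the whole array are not given here. The farthest rows were TA26H, with -0.84 in replicate 1 and -0.32 in replicate 2, TA22E, with -0.73 and -0.28, and TA19D, with -0.98 and -0.56. After quantile normalization replicate 1 was lower in 42 of the 56 rows and higher in 16 of the 21.

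**Figure D4:**
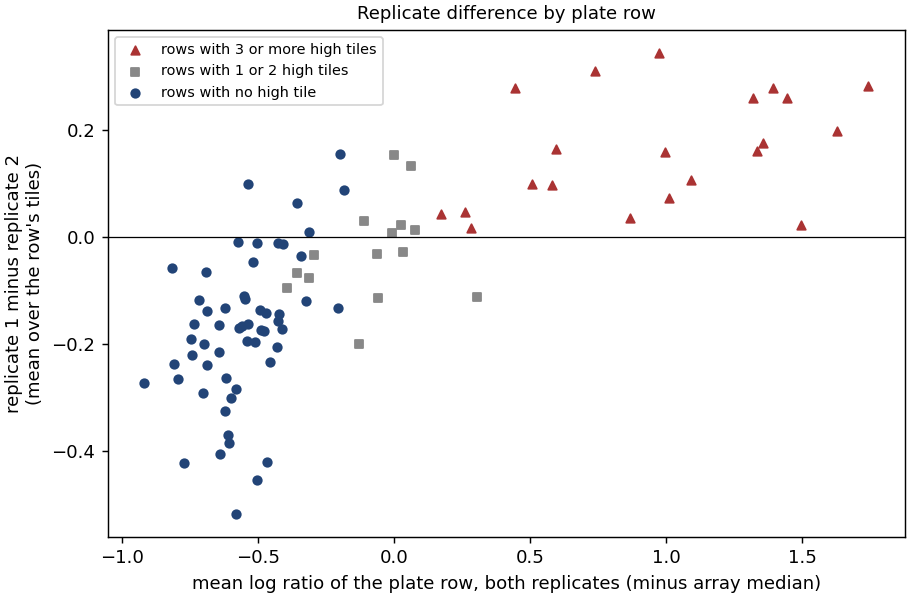
Mean difference of replicate 1 minus replicate 2 (y axis) against the mean log ratio of both (x axis) for each plate row with at least 8 tiles. Rows with 3 or more high tiles all lie above 0, and 51 of 56 rows without a high tile lie below it.

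The profile was otherwise alike in both replicates. Over the 1069 tiles, r between replicates was 0.96, and over the low tiles alone it was 0.74. On TA22 and TA23, which hold low tiles only, it was 0.67 over 154 tiles. The ratio of a tile in replicate 1 correlated with that of the next tile in replicate 2 with r = 0.75 over the block, and with 0.34 on TA22 and TA23. These are descriptions across tiles that share arrays and neighbours. They have no p-value.

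The position of a tile in its plate also went with differences in level. Over low tiles, the means of the 12 columns ran between -0.56 and -0.44 on the replicate mean, and those of the 8 rows between -0.58 and -0.42. In replicate 1 the columns ran between -0.65 and -0.49 and in replicate 2 between -0.50 and -0.38. The rows ran between -0.67 and -0.46 in replicate 1 and between -0.49 and -0.37 in replicate 2. On the replicate mean the range over rows was 0.16, about the size of the gap between low tiles after and before the stop without TA18 (-0.16). Rows and columns are also places in the identifier order, so a layout effect and the course of the profile cannot be told apart from these means.

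Compared with the other low regions, the plates from TA21 on kept more high tiles. The share of high tiles was 6.73% on TA21 to TA29, 2.39% on TA37 to TA51 and 0.97% on TC17 to TC30. The low tiles of TA21 to TA29 averaged -0.63 in replicate 1 and -0.46 in replicate 2. Those of TA37 to TA51 averaged -0.73 and -0.44, and those of TC17 to TC30 -0.66 and -0.34. All 3 regions were picked for few high tiles, so these shares are descriptions with no test. In each of them the low tiles were lower in replicate 1, by 0.17, 0.29 and 0.32 in the same order.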

How the data were processed

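The deposited table holds 1 log ratio per tile and array for 4 arrays. No source used here gives their base, direction, scanner processing, normalization or genome build. Of 21800 identifiers, 115 have no value. Both columns of each dye-swap pair hold identical values and were averaged to 1 replicate, and each replicate was centred on its median over all tiles (-1.22 and -1.10 as deposited). Tiles were tested for a replicate mean other than 0 in R 4.3.3 with limma 3.58.1 (eBayes, two-sided, Benjamini-Hochberg over all tiles, threshold 0.05), with 1 residual and 23.1 prior degrees of freedom. Classes came from a mixture of 2 normal distributions (scikit-learn 1.9.0). Break points were placed by least squares, with at least 12 tiles per segment. The test and the break points were checked on simulated data with independent noise. Neighbouring tiles here are not independent, so the check shows that the methods run correctly and not how they behave on such tiles. Members, lists and limits were chosen with earlier results of these data known. Tiles were named by rule: ends of the longest stretches without high tiles and their high neighbours, high tiles on plates with under 5% of them, ends of runs of 8 or more, 3 highest, 3 lowest, 3 with the largest replicate difference, and those beside the threshold. The other tiles named were chosen after their values were seen. The number of arrays limits the precision.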

Additional observations from a re-analysis of the deposited data

How the results depend on the processing

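The 142 high tiles became 78 with the upper of 3 mixture components alone, and lay between 126 and 137 in single replicates. They numbered between 131 and 199 under the other settings. The 258 tiles without a high one lay between 254 and 296 under all settings but one: with a limma call above the array median in place of a high tile, the longest stretch held 148 tiles, TA21D10 to TA23D07. Of the limma counts, 199 above and 653 below, centring moved the first to 104 when left out. A minimum shift of 0.5 (treat) left 146 below, and turning every sign gives 653 above and 199 below. The break at TA21A05, tile 287 of the order, was the same in both replicates and moved to tile 284 when wells were ordered by column, where the order itself differs. The other break, at tile 275, lay between 109 and 275 in single replicates and at 99 in column order. The replicate difference on TA21 to TA29, -0.13, became -0.25 without centring and -0.07 with quantile normalization. The gap between low tiles after and before the stop, -0.22, became -0.59 when plate medians of all tiles were used, since these include the high tiles. The settings on the join of groups, plate medians, leaving out TA18, the gap in single replicates and the tolerance of the mixture fit were chosen after seeing the data, as were the quantile and limma settings of the longest stretch. The limma counts were not made from single replicates, which allow no test. No paired analysis was possible because there is only 1 group.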
